A study of Mus musculus with 8 samples.

Results

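The 32 genes described here are components of the p53 pathway and genes that p53 is known to activate. They were chosen by symbol from a list of such genes, with Cdkn1a and the BCL2 family left out. All 32 were found among the 21240 genes of the count table, and all 32 were among the 11835 genes with enough counts to be tested. The RNA came from NMuMG cells, a wild-type epithelial line from the normal mouse mammary gland, grown in serum and insulin to a dense but unfilled layer. The 4 groups were the vehicle DMSO for 6 h, DMSO for 30 h, BRM014 for 6 h and BRM014 for 30 h, each with 2 libraries. BRM014 inhibits the ATPase activity of SMARCA4 and SMARCA2, the motors of the SWI/SNF chromatin remodelling complexes, and no dose is given in the sources used here. The labels call the 2 libraries of a group biological replicates without saying whether the cultures came from separate passages or days, so the p-values measure the spread between these libraries. No agent that damages DNA is named for any group.

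The transcription factor p53, encoded by Trp53, is held low in unstressed cells by the ubiquitin ligase MDM2 and its partner MDM4. When DNA damage or another stress frees it, p53 binds pairs of a short palindromic half-site and activates genes for cell cycle arrest, DNA repair, metabolism and apoptosis. Several of these targets, among them Mdm2, Ppm1d and Ccng1, encode proteins that switch the response off again. In mammary epithelium p53 is best known as a tumour suppressor. Many of its targets also have p53-independent enhancers, so their RNA does not read out p53 alone.

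The half-site was looked for in the RefSeq promoter windows of the members, because the letters show what p53 targets can carry close to their start. The windows run from 250 bases before to 50 bases after an annotated start in GRCm38.p6, which is not the mm9 build the submitters' processing notes name for the counts, and 25 members had one. The p53 half-site consensus of 10 bases reads the same on both strands. It was present without mismatch in at least 1 window of 10 of the 25 members (40.0%), and of 9.55% of 27025 genes in the whole promoter table. A full site, taken as 2 half-sites with a spacer of at most 13 bases, was present with at most 1 mismatch in 3 members (12.0%), against 1.24% of all genes. Every full site counted this way can also hold a half-site counted above. The 3 members were Ccng1 (the pair starts at base -195 from the annotated start), Rps27l (-117) and Polk (-231). Since the members were chosen as p53 genes, these shares are a description with no test. Their sites are shown with the half-sites in capitals, at chr11:40755442-40755501 (minus strand) for Ccng1, chr9:66946276-66946335 (plus strand) for Rps27l and chr13:96519378-96519437 (minus strand) for Polk. The Rps27l and Polk windows lie in introns of the genes' longer GENCODE M21 models, and the Ccng1 window lies outside its gene.
Ccng1: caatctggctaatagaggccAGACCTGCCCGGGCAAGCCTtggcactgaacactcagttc
Rps27l: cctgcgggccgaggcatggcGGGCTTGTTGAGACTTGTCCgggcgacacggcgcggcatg
Polk: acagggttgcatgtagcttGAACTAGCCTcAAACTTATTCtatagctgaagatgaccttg
With up to 2 mismatches a pair was present in 6 members (24.0%) and in 11.5% of all genes, and the members added were Gadd45a, Aen and Sesn1. Gadd45a held a pair with 2 mismatches and a spacer of 11 bases at chr6:67037423-67037482 (minus strand), and Mdm2 and Trp53 each held a single half-site, at chr10:117710910-117710969 (minus strand) and chr11:69580259-69580318 (plus strand). These 3 are shown because Gadd45a was among the members with the largest rises and the other 2 form the core of the pathway.
Gadd45a: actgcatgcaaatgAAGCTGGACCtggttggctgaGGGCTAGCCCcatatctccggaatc
Mdm2: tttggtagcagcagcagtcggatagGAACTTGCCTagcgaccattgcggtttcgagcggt
Trp53: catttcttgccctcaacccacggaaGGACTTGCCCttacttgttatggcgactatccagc
A match describes the letters and is not a measured binding site, and no p53 binding was measured here.

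The libraries held 17859693 to 29955366 counts, and the members together took 0.303% to 0.451% of a library. Levels are given in CPM, the field's usual scaling of counts to a common library size, after TMM normalization, which applies a factor per library for differences in composition, and differences as log2 fold changes ± standard error from 1 edgeR quasi-likelihood fit to all 8 libraries. The standard error was derived, as the size of the log2 fold change divided by the square root of the F statistic of its test. A gene is said to rise or fall where its Benjamini-Hochberg adjusted p over all 11835 genes was below 0.05. The epithelial label was checked on 8 markers. Krt8, Krt18, Krt19, Cdh1 and Ocln passed the filter on counts, with a mean of 2090 CPM for Krt8 in DMSO at 6 h. Krt7 stood at 0.128 CPM there, and the epithelial genes Epcam and Cldn7 were listed at 0 in every library. Summed markers of leukocytes (6 genes), endothelium (5) and adipocytes (4) stayed at or below 0.489 CPM in every library, and the 5 fibroblast markers at or below 2.66 CPM. The summed epithelial markers were higher with BRM014 at 30 h (7460 to 8700 CPM) than in DMSO at 30 h (5580 to 5740), and overlapped at 6 h (5560 to 6150 and 5980 to 6330). The single markers did not move together. At 30 h Krt8, Krt18 and Cdh1 rose and Ocln did not pass, while Krt19 fell from a mean of 1200 CPM in DMSO to 657 with BRM014. At 6 h Krt19 fell too (722 against 341 CPM), and the other 4 tested markers did not pass. The summed fibroblast markers were lower with BRM014 at 6 h (0.513 to 0.682 against 0.915 to 1.61 CPM) and at 30 h (1.12 to 1.21 against 2.19 to 2.66). Of these 5, only Col1a1 and Pdgfra passed the filter on counts. Col1a1 fell at both times, on 2 to 12 counts with BRM014 and 8 to 36 in DMSO. Pdgfra did not pass at either time, and its 30 h means were 0.654 CPM in DMSO and 0.696 with BRM014. The part of these marker differences in the members' values was not tested. In bulk RNA, fewer cells with a transcript and less of it per cell cannot be told apart.

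BRM014 moved the members in both directions. At 6 h 5 of the 32 members rose, 8 of them fell and the test was not passed by 19, so 40.6% of the members changed where 23.8% of all tested genes did (9.41% rose and 14.4% fell). At 30 h there were 11 risers, 4 fallers and 17 that did not pass, or 46.9% of the members beside 36.1% of all tested genes (16.9% rose and 19.1% fell). The median log2 fold change of the members was 0.15 at 6 h and 0.29 at 30 h, beside -0.01 and 0.00 over all tested genes. Btg2, Gadd45a and Tnfrsf10b rose at both times, and Gdf15, Perp, Ddb2 and Ephx1 fell at both times. No member rose at one time and fell at the other. At 6 h the BRM014 libraries lay above both DMSO libraries for 13 members and below both for 11, and at 30 h for 17 and 6. Such separation of 2 against 2 libraries held for 65.2% of all tested genes at 6 h and 66.8% at 30 h. The number of risers at 6 h was 2 without DMSO 6 h replicate 2 or without BRM014 6 h replicate 1, and 8 without DMSO 30 h replicate 2. The number of fallers at 6 h was 5 without DMSO 6 h replicate 1 or without BRM014 6 h replicate 2, and the number of risers at 30 h was 7 without BRM014 30 h replicate 1. At 6 h the risers numbered 9 and the fallers 6 with scaling by library totals, 11 and 9 with no filter on counts, and 11 and 8 with only the 4 libraries of that time, so which direction held more members depended on these settings. At 30 h 17 rose and 3 fell with ribosomal protein scaling.

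**Figure D1:**
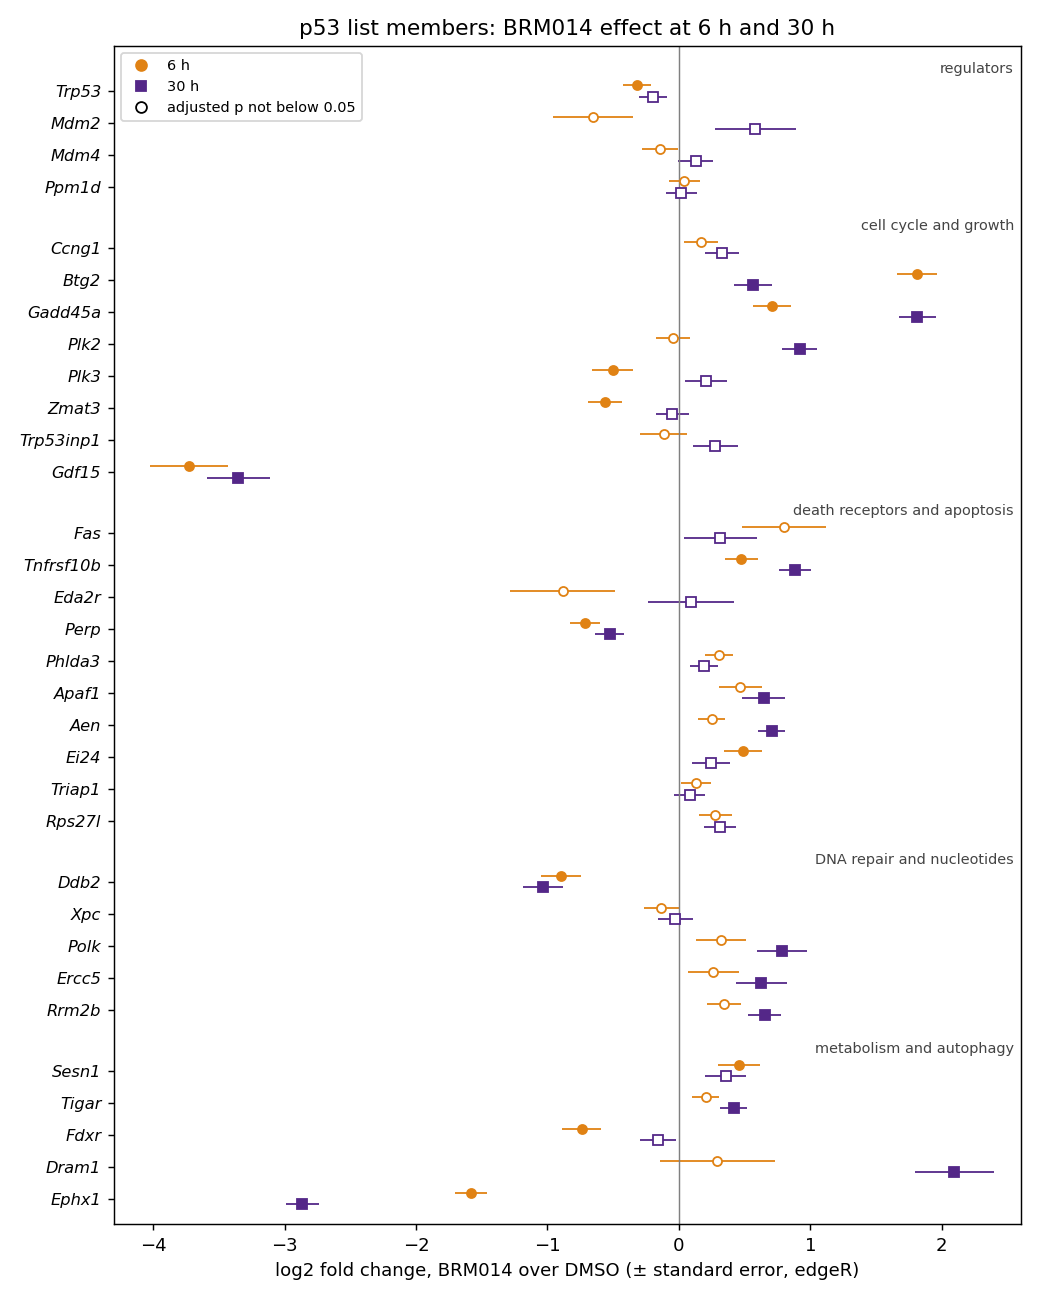
Log2 fold change of BRM014 over DMSO at 6 h (circles) and 30 h (squares) for the 32 members, ordered by role. Bars show 1 standard error derived from the edgeR test, and filled symbols mark adjusted p below 0.05. Gdf15 and Ephx1 lie far to the left at both times, and 11 squares are filled to the right of 0 against 5 circles.

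Of the transcripts of p53 and its 3 direct regulators, 1 fell at 6 h and none passed at 30 h. Over all tested genes 23.8% and 36.1% were called at these times. Trp53 stood at 343 and 278 CPM in DMSO at 6 h and at 258 and 240 CPM with BRM014. It stood at 267 and 245 CPM in DMSO at 30 h and at 228 and 220 CPM with BRM014. Both BRM014 libraries lay below both DMSO libraries at each time. The fall at 6 h passed narrowly (-0.32 ± 0.11, adjusted p = 0.0441 in edgeR), and that at 30 h did not pass (-0.19 ± 0.11, adjusted p = 0.177). The 6 h call is uncertain. It ended without DMSO 6 h replicate 1 (log2 -0.12, adjusted p = 0.521), BRM014 6 h replicate 1 (log2 -0.36, adjusted p = 0.110), BRM014 6 h replicate 2 (log2 -0.26, adjusted p = 0.285), DMSO 30 h replicate 2 (adjusted p = 0.0517) or either BRM014 30 h library (adjusted p = 0.0569 and 0.0554), and with RLE factors, library totals, ribosomal protein scaling, the stricter filter and limma-voom (adjusted p = 0.0504 to 0.184).

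Mdm2, whose product ubiquitinates p53, showed the widest replicate spread of the regulators. It stood at 561 and 369 CPM in DMSO at 6 h and at 364 and 228 CPM with BRM014, and at 257 and 236 CPM in DMSO at 30 h and 445 and 294 CPM with BRM014. Both BRM014 libraries lay below the DMSO libraries at 6 h and above them at 30 h. Neither difference passed (-0.65 ± 0.31, adjusted p = 0.184 at 6 h, and 0.58 ± 0.31, adjusted p = 0.191 at 30 h). The difference between the 2 effects was 1.23 ± 0.43 (adjusted p = 0.172) and passed with ribosomal protein scaling (1.32, adjusted p = 0.0373), no filter (adjusted p = 1.09e-13) and limma-voom (1.21, adjusted p = 0.0434). With no filter the effects at 6 h and 30 h passed too (adjusted p = 4.19e-08 and 5.79e-07), and the 30 h effect also passed with ribosomal protein scaling (0.75, adjusted p = 0.0222) and with the 4 libraries of that time alone (0.59, adjusted p = 0.0305). The no-filter adjusted p-values for Mdm2 were far below those of the main fit. Yet its replicate 1 exceeded replicate 2 by a ratio of 1.52 in DMSO at 6 h and 1.60 with BRM014 at 6 h. The reason was not tested, and these p-values are not read as stronger evidence. Both effects and their difference also passed with a replicate block. Its values are given with the processing, since the replicate numbers do not establish pairs. Mdm4, which encodes a p53-binding partner of MDM2, stood at 51.3 and 58.2 CPM in DMSO at 6 h, 42.6 and 56.3 with BRM014 at 6 h, 45.3 and 49.6 in DMSO at 30 h and 48.4 and 55.1 with BRM014 at 30 h. Ppm1d, which encodes the phosphatase WIP1 that dephosphorylates p53, stood at 37.0 and 32, 36.5 and 34.5, 33.9 and 34.1, and 32.5 and 36.3 CPM in the same order. For both genes the BRM014 and DMSO libraries overlapped at each time, and their log2 fold changes were -0.14 ± 0.13 and 0.04 ± 0.12 at 6 h and 0.13 ± 0.13 and 0.02 ± 0.12 at 30 h.

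**Figure D2:**
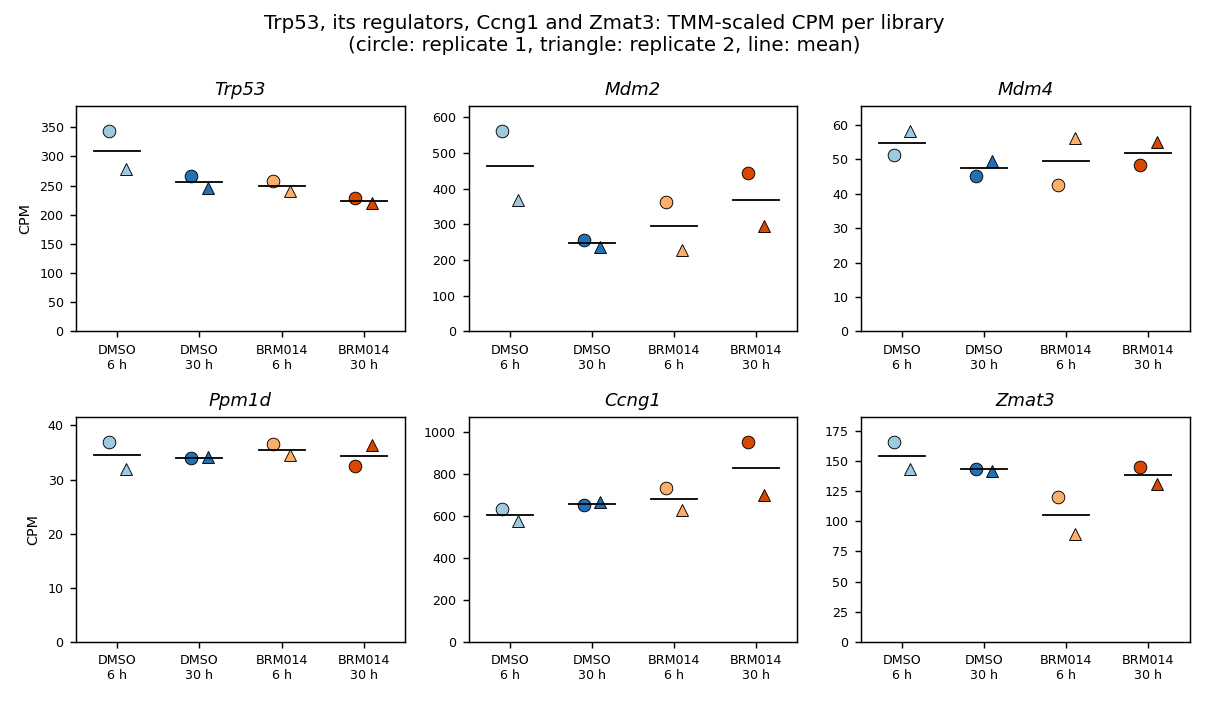
CPM in each of the 8 libraries for Trp53, Mdm2, Mdm4, Ppm1d, Ccng1 and Zmat3, with circles for replicate 1, triangles for replicate 2, a line at the mean of the 2, and linear axes that start at 0. Mdm2 ranged from 228 to 561 CPM with wide gaps between replicates in 3 groups, whereas Ppm1d stayed between 32 and 37.0 CPM.

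Of 8 members that act on the cell cycle and growth, 2 rose, 3 fell and 3 did not pass at 6 h, and 3 rose, 1 fell and 4 did not pass at 30 h. Btg2, an antiproliferative cofactor of RNA deadenylation, had the largest rise of the list at 6 h. It stood at 32.6 and 23.8 CPM in DMSO at 6 h and 111 and 87.2 with BRM014, a log2 fold change of 1.81 ± 0.16 (adjusted p = 5.55e-06). Its 30 h values were 126 and 114 CPM in DMSO and 187 and 168 with BRM014 (0.56 ± 0.14, adjusted p = 0.00927). The BRM014 libraries were above the DMSO libraries at both times, and the 30 h call was lost without DMSO 30 h replicate 2 (log2 0.49, adjusted p = 0.066) or BRM014 30 h replicate 1 (log2 0.49, adjusted p = 0.0691). Gadd45a, a stress gene that restrains the cell cycle, stood at 14.9 and 12.3 CPM in DMSO at 6 h and 23.0 and 21.6 with BRM014 (0.71 ± 0.14, adjusted p = 0.00232). Its 30 h values were 11.4 and 13.9 CPM in DMSO and 44.3 and 44.9 with BRM014 (1.81 ± 0.14, adjusted p = 3.41e-07). GENCODE M21 places an antisense gene, E230016M11Rik, over 19.5% of the Gadd45a exons. The kit keeps the strand, but the strand setting of the counting was not given.

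The polo-like kinase genes Plk2 and Plk3 encode stress-responsive kinases. Plk2 stood at 287 and 216 CPM in DMSO at 6 h and 263 and 224 with BRM014, where the libraries overlapped. At 30 h it stood at 132 and 122 CPM in DMSO and 253 and 229 with BRM014, and it rose (0.92 ± 0.13, adjusted p = 0.000112). Plk3 stood at 18.3 and 15.5 CPM in DMSO at 6 h and 11.6 and 12.2 with BRM014, a fall of -0.50 ± 0.16 (adjusted p = 0.0301). At 30 h its values were 11.2 and 9.93 CPM in DMSO and 11.9 and 12.4 with BRM014 (0.21 ± 0.16, adjusted p = 0.340). The Plk3 fall is uncertain, as it ended without DMSO 6 h replicate 1 (log2 -0.34, adjusted p = 0.267), BRM014 6 h replicate 1 (log2 -0.47, adjusted p = 0.164) or BRM014 6 h replicate 2 (log2 -0.54, adjusted p = 0.131), and with DESeq2, library totals and ribosomal protein scaling (adjusted p = 0.0513 to 0.0835).

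Gdf15, which encodes a secreted stress cytokine, had the largest fall of the list at both times. It stood at 6.76 and 6.29 CPM in DMSO at 6 h (133 and 121 counts) and at 0.359 and 0.597 CPM with BRM014 (7 and 14 counts), a log2 fold change of -3.73 ± 0.30 (adjusted p = 9.39e-07). After 30 h it stood at 14.6 and 14.8 CPM in DMSO and 1.18 and 1.63 with BRM014 (-3.35 ± 0.24, adjusted p = 1.56e-07). The groups were far apart at both times. Zmat3, whose product binds RNA, stood at 166 and 143 CPM in DMSO at 6 h and 120 and 89.5 with BRM014 (-0.56 ± 0.13, adjusted p = 0.0055), and at 143 and 142 CPM in DMSO at 30 h and 145 and 131 with BRM014. It fell at 6 h, and the call was lost without DMSO 6 h replicate 1 (log2 -0.42, adjusted p = 0.0886) or BRM014 6 h replicate 2 (log2 -0.36, adjusted p = 0.108). Trp53inp1, which promotes p53-dependent death and autophagy, stood at 36.7 and 44.0 CPM in DMSO at 6 h and 43.9 and 30.7 with BRM014, and at 95.3 and 114 CPM in DMSO at 30 h and 141 and 113 with BRM014. BRM014 and DMSO overlapped at both times for Trp53inp1. Ccng1, a cyclin gene of p53 feedback, had log2 fold changes of 0.17 ± 0.13 and 0.33 ± 0.13 that did not pass (adjusted p = 0.393 and 0.0676), and without BRM014 30 h replicate 2 it passed at 30 h (0.54, adjusted p = 0.00584).

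Among 10 death receptor and apoptosis genes, 2 rose, 1 fell and 7 did not pass at 6 h, and 3 rose, 1 fell and 6 did not pass at 30 h. Tnfrsf10b, the mouse TRAIL death receptor gene, stood at 77.8 and 65.4 CPM in DMSO at 6 h and 108 and 91.0 with BRM014 (0.48 ± 0.12, adjusted p = 0.011). At 30 h it stood at 57.9 and 59.1 CPM in DMSO and 118 and 98.4 with BRM014 (0.88 ± 0.12, adjusted p = 7.4e-05). It rose at both times, but the 6 h call was lost without DMSO 6 h replicate 2 (log2 0.35, adjusted p = 0.124) or BRM014 6 h replicate 1 (log2 0.35, adjusted p = 0.138). Fas, the gene of the FAS death receptor, stood at 8.13 and 6.55 CPM in DMSO at 6 h and 14.3 and 11.4 with BRM014, and at 35.2 and 24.3 CPM in DMSO at 30 h and 47.8 and 26.5 with BRM014. The libraries were apart at 6 h and overlapped at 30 h. Its differences of 0.80 ± 0.32 (adjusted p = 0.107) and 0.32 ± 0.28 (adjusted p = 0.415) did not pass. Without either BRM014 30 h library the 6 h value passed (0.81 and 0.80, adjusted p = 0.0189 each), and without BRM014 30 h replicate 2 the 30 h value did (0.69, adjusted p = 0.0394). The 6 h value also passed with ribosomal protein scaling, no filter, DESeq2 and the 4 libraries of that time alone (adjusted p = 1.27e-05 to 0.0294). Eda2r, the receptor gene for an ectodysplasin isoform, was near the limit of counting, with 13 to 50 counts in a library, and did not pass at either time.

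Perp, a desmosomal membrane protein gene that p53 and p63 activate, went the other way. It stood at 79.7 and 81.9 CPM in DMSO at 6 h and 51.9 and 46.6 with BRM014 (-0.72 ± 0.11, adjusted p = 0.000339). Its later values were 87.6 and 87.9 CPM in DMSO and 67.3 and 54.8 with BRM014 (-0.53 ± 0.11, adjusted p = 0.0021). Perp fell at both times. The 30 h call was lost with ribosomal protein scaling (-0.35, adjusted p = 0.0551).

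Of the genes that act inside the apoptotic pathway, Apaf1, which encodes the scaffold of the apoptosome, stood at 44.0 and 47.5 CPM in DMSO at 6 h and 70.2 and 56.3 with BRM014 (0.47 ± 0.16, adjusted p = 0.0606). The 30 h values were 42.3 and 48.5 CPM in DMSO and 84.0 and 58.8 with BRM014 (0.65 ± 0.16, adjusted p = 0.00906). Its rise passed at 30 h, and ended without DMSO 30 h replicate 1 (log2 0.56, adjusted p = 0.0584) or BRM014 30 h replicate 1 (log2 0.37, adjusted p = 0.0802). The 6 h difference passed when either BRM014 30 h library was left out (adjusted p = 0.0176 and 0.0174), and also without the DMSO 30 h library of replicate 2 (adjusted p = 0.0449) or BRM014 6 h replicate 2 (log2 0.62, adjusted p = 0.0452). Aen, an apoptosis-enhancing nuclease gene, stood at 227 and 192 CPM in DMSO at 6 h and 261 and 237 with BRM014 (0.25 ± 0.10, adjusted p = 0.0953), and at 141 and 133 CPM in DMSO at 30 h and 217 and 230 with BRM014 (0.71 ± 0.10, adjusted p = 0.000116). It rose at 30 h, and the 6 h value passed without DMSO 6 h replicate 1 (log2 0.41, adjusted p = 0.035). Ei24, which encodes an endoplasmic reticulum protein, rose at 6 h (0.49 ± 0.14, adjusted p = 0.0266) and did not pass at 30 h (0.25 ± 0.14, adjusted p = 0.205). The Ei24 rise ended without DMSO 6 h replicate 2 (log2 0.40, adjusted p = 0.172) or BRM014 6 h replicate 1 (log2 0.38, adjusted p = 0.170), and at 30 h the gene passed without BRM014 30 h replicate 2 (log2 0.47, adjusted p = 0.0167).

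Phlda3, an inhibitor of AKT, had values of 0.30 ± 0.11 (adjusted p = 0.0523) and 0.19 ± 0.11 (adjusted p = 0.176). It passed at 6 h without DMSO 6 h replicate 1 (log2 0.44, adjusted p = 0.0372), DMSO 30 h replicate 1 (adjusted p = 0.0278) or replicate 2 of the same group (adjusted p = 0.0169), and at 30 h without DMSO 30 h replicate 1 (log2 0.33, adjusted p = 0.0482). At 6 h it also passed with the other 3 scalings, either other filter, DESeq2 and the 4 libraries of that time alone (adjusted p = 0.0135 to 0.0473). Rps27l, a ribosomal protein paralogue gene, had 0.28 ± 0.12 and 0.31 ± 0.12 (adjusted p = 0.130 and 0.0650), and passed at 30 h without DMSO 30 h replicate 1 (log2 0.45, adjusted p = 0.0212) or BRM014 30 h replicate 2 (log2 0.49, adjusted p = 0.0153). In GENCODE M21 11.2% of the 50-base stretches of Rps27l also occur in other genes, the largest share of the 32 members. Of the 4 sharing genes Gm14706 ranked first, so the counts of Rps27l could be split. Triap1, the remaining gene of this role, did not pass at either time (0.13 ± 0.12 and 0.08 ± 0.12).

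Of 5 genes of DNA repair and nucleotide supply, 1 fell and 4 did not pass at 6 h, and 3 rose, 1 fell and 1 did not pass at 30 h. Ddb2, which encodes the damage sensor of global nucleotide excision repair, fell at both times. It stood at 17.2 and 16.6 CPM in DMSO at 6 h and 9.29 and 8.91 with BRM014 (-0.89 ± 0.15, adjusted p = 0.000677), and at 18.5 and 16.4 CPM in DMSO at 30 h and 8.77 and 8.31 with BRM014 (-1.03 ± 0.15, adjusted p = 0.000124). The DMSO libraries of both times and the BRM014 libraries of both times formed 2 separate ranges. GENCODE M21 places exons of Acp2 on the opposite strand over 26.7% of the Ddb2 exons, so with unstranded counting some reads could not be assigned. Xpc, whose product acts beside DDB2 in damage recognition, did not pass (-0.13 ± 0.13 and -0.03 ± 0.13).

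The other 3 genes of this role rose at 30 h. Polk, which encodes a polymerase that copies past lesions, stood at 37.4 and 46.7 CPM in DMSO at 30 h and 78.7 and 66.9 with BRM014 (0.79 ± 0.19, adjusted p = 0.00904), after 52.6 and 40.1 CPM in DMSO at 6 h and 68.4 and 47.6 with BRM014. Ercc5, the gene of the XPG endonuclease, stood at 48.4 and 44.5 CPM in DMSO at 30 h and 85.2 and 58.8 with BRM014 (0.63 ± 0.20, adjusted p = 0.0297), after 56.7 and 45.9 CPM in DMSO at 6 h and 71.1 and 52.2 with BRM014. Rrm2b, the p53-inducible subunit gene of ribonucleotide reductase, stood at 24.7 and 26.7 CPM in DMSO at 30 h and 43.5 and 37.6 with BRM014 (0.65 ± 0.13, adjusted p = 0.00111), after 24.0 and 26.3 CPM in DMSO at 6 h and 29.5 and 34.4 with BRM014. At 6 h Polk and Ercc5 overlapped between DMSO and BRM014 whereas Rrm2b did not, and none of the 3 passed (adjusted p = 0.269, 0.381 and 0.0651). Rrm2b passed at 6 h without DMSO 30 h replicate 2 (log2 0.38, adjusted p = 0.0348). The Polk call at 30 h ended without DMSO 30 h replicate 1 (log2 0.64, adjusted p = 0.0611) or BRM014 30 h replicate 1 (log2 0.67, adjusted p = 0.0616). The Ercc5 call was lost without DMSO 30 h replicate 1 (log2 0.70, adjusted p = 0.0933), DMSO 30 h replicate 2 (log2 0.56, adjusted p = 0.155) or BRM014 30 h replicate 1 (log2 0.34, adjusted p = 0.188).

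Of 5 genes of metabolism and autophagy, 1 rose, 2 fell and 2 did not pass at 6 h, and 2 rose, 1 fell and 2 did not pass at 30 h. Ephx1, the microsomal epoxide hydrolase gene, stood at 92.5 and 103 CPM in DMSO at 6 h and 32.9 and 32.4 with BRM014 (-1.58 ± 0.12, adjusted p = 7.2e-07). After 30 h it stood at 285 and 338 CPM in DMSO and 47.2 and 38.6 with BRM014 (-2.86 ± 0.12, adjusted p = 9.38e-10). All 4 BRM014 libraries lay below all 4 DMSO libraries. Dram1, a lysosomal membrane protein gene of p53-linked autophagy, started near the limit of counting. It had 13 and 9 counts in DMSO at 6 h and 10 and 20 with BRM014, and 21 and 31 counts in DMSO at 30 h and 99 and 168 with BRM014. In CPM these were 0.661 and 0.468, 0.513 and 0.853, 1.14 and 1.36, and 5.30 and 5.47. Dram1 rose at 30 h (2.10 ± 0.30, adjusted p = 0.000102) and the libraries overlapped at 6 h (0.29 ± 0.44, adjusted p = 0.686).

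Fdxr, the ferredoxin reductase gene of mitochondrial electron transfer, stood at 18.6 and 16.6 CPM in DMSO at 6 h and 9.96 and 11.1 with BRM014 (-0.74 ± 0.15, adjusted p = 0.00218). At 30 h it stood at 25.8 and 22.0 CPM in DMSO and 21.3 in both BRM014 libraries (-0.16 ± 0.14, adjusted p = 0.401). It fell at 6 h. Tigar encodes a fructose bisphosphatase that lowers glycolytic flux. It rose over DMSO at 30 h (0.42 ± 0.10, adjusted p = 0.00574) and did not pass at 6 h (0.20 ± 0.10, adjusted p = 0.171). Its mean at 6 h and 30 h was 65.7 and 62.6 CPM with BRM014, and 57.1 and 47 CPM in DMSO. Sesn1, a stress gene that restrains mTORC1, rose at 6 h by the narrowest margin (0.46 ± 0.16, adjusted p = 0.0488) and did not pass at 30 h (0.35 ± 0.16, adjusted p = 0.0896). The Sesn1 call was lost whichever 6 h library was left out (log2 0.37 to 0.55, adjusted p from 0.0962 to 0.274) or of the BRM014 30 h libraries (adjusted p = 0.0542 and 0.0555), and with ribosomal protein scaling, DESeq2 and limma-voom (adjusted p = 0.0574 to 0.0656).

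**Figure D3:**
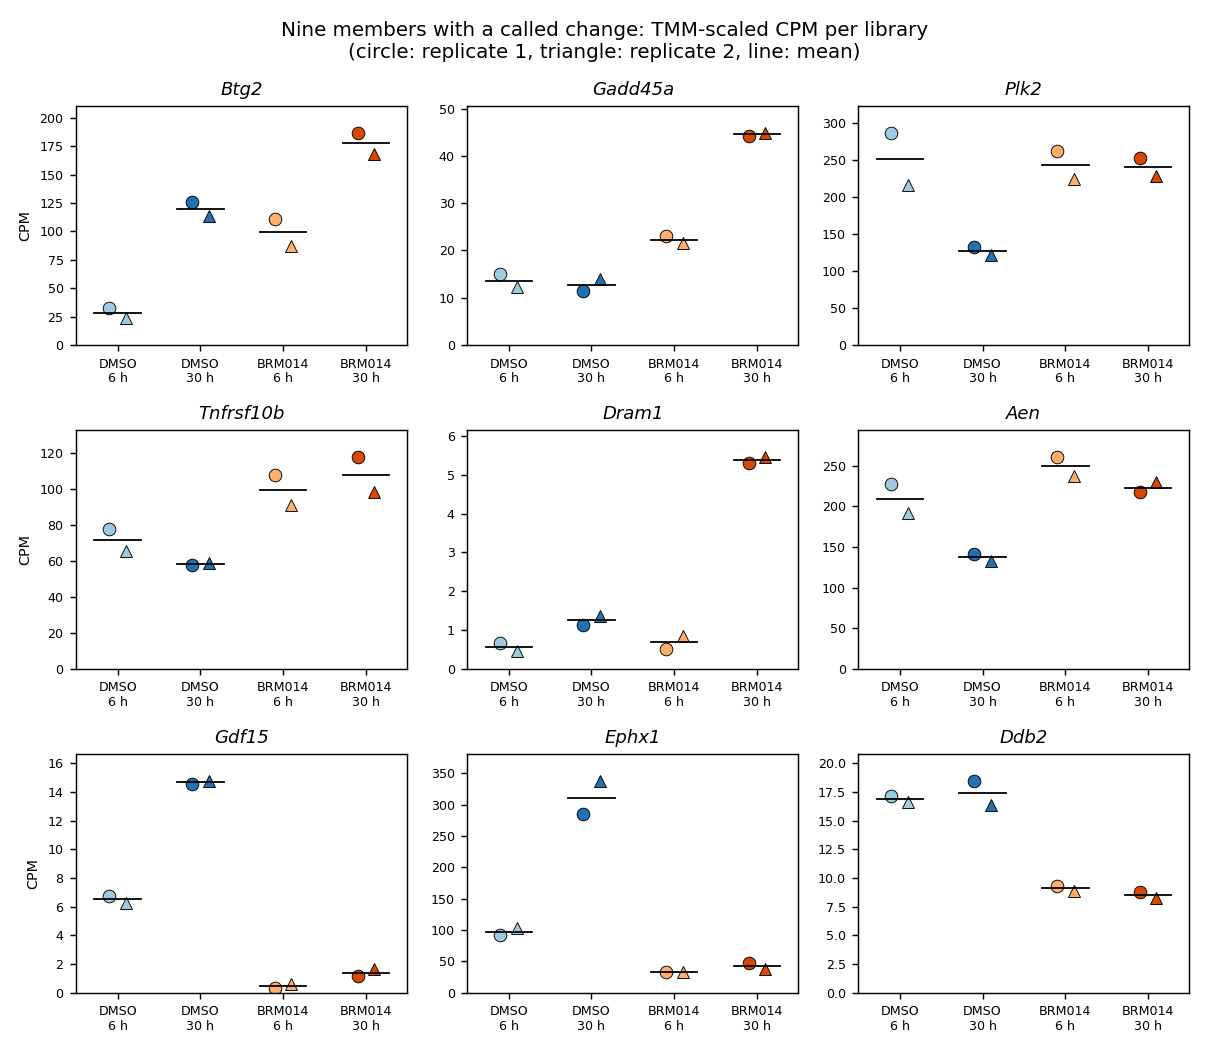
CPM in each of the 8 libraries for 9 members with a called change, with circles for replicate 1, triangles for replicate 2, a line at the mean of the 2, and linear axes that start at 0. Gdf15, Ephx1 and Ddb2 are low in all 4 BRM014 libraries, Dram1 is high in the 2 BRM014 30 h libraries alone, and Plk2 and Aen are lowest in DMSO at 30 h.

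The BRM014 effect differed between the times for 4 members, 2 upward and 2 downward (12.5% of the members beside 6.35% of all tested genes, 3.84% upward and 2.51% downward). The effect on Btg2 was smaller at 30 h (difference -1.25 ± 0.21, adjusted p = 0.00414). That on Ephx1 was more negative at 30 h (-1.28 ± 0.17, adjusted p = 0.000503), while those on Gadd45a (1.10 ± 0.20, adjusted p = 0.00423) and Plk2 (0.97 ± 0.18, adjusted p = 0.00658) were more positive. These 4 calls held in each of the 16 alternatives run for this comparison. For the other 28 members a difference between the times was not shown. Dram1 (1.80 ± 0.55, adjusted p = 0.0683), Plk3 (0.71 ± 0.22, adjusted p = 0.0776) and Aen (0.46 ± 0.15, adjusted p = 0.0827) came closest, and Aen passed without DMSO 6 h replicate 2 (log2 0.59, adjusted p = 0.0435). Zmat3 (0.51 ± 0.18, adjusted p = 0.116) passed without BRM014 6 h replicate 1 (log2 0.73, adjusted p = 0.0336).

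**Figure D4:**
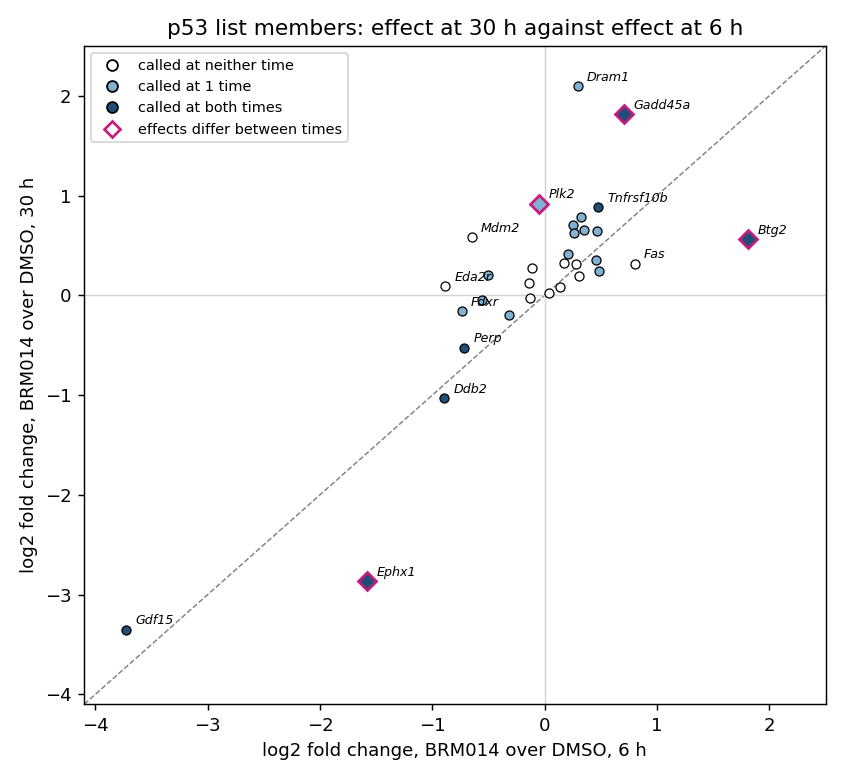
Log2 fold change of BRM014 over DMSO at 30 h against that at 6 h for the 32 members, on linear axes with a dashed line where both are equal, darker symbols for members called at more times and diamonds for members whose effects differed between the times. Btg2 lies below the line, Gadd45a and Plk2 above it, and Ephx1 below it in the quadrant where both effects are negative.

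Between 6 h and 30 h in DMSO, members were called about as often as all tested genes. In DMSO 7 members were higher at 30 h than at 6 h, 4 were lower and 21 did not pass, or 34.4% of the members beside 35.3% of all tested genes (18% higher and 17.3% lower). This comparison shares its DMSO libraries with the BRM014 comparisons, so the values of each are not independent. Btg2 (2.09 ± 0.16), Fas (2.01 ± 0.31), Ephx1 (1.67 ± 0.12), Trp53inp1 (1.38 ± 0.18), Gdf15 (1.17 ± 0.21), Dram1 (1.14 ± 0.40) and Fdxr (0.44 ± 0.14) were higher at 30 h. The libraries of the 2 times did not overlap for any of these 7, which were picked by the test. Among all members, the later DMSO libraries lay above the earlier ones for 10 and below them for 9. They overlapped for 13 members. Over all tested genes, 67.7% showed no overlap in either direction. Plk2 (-0.98 ± 0.13), Plk3 (-0.68 ± 0.16), Aen (-0.61 ± 0.10) and Tigar (-0.28 ± 0.10) were lower. For Mdm2 (-0.91 ± 0.31, adjusted p = 0.0587) and Trp53 (-0.28 ± 0.11, adjusted p = 0.0573) the threshold was just missed.

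Several of the calls for time in DMSO rested on single libraries. The number of lower members was 2 without DMSO 6 h replicate 1, where Plk3 did not pass (-0.53, adjusted p = 0.0706). Tigar lost its call without any 1 of the DMSO or BRM014 6 h libraries (log2 -0.33 to -0.22, adjusted p = 0.0654 to 0.212), and with the other 3 scalings, either other filter, DESeq2 and the 4 DMSO libraries alone (adjusted p = 0.0502 to 0.305). Fdxr did so without DMSO 6 h replicate 1 (log2 0.54, adjusted p = 0.0537), DMSO 6 h replicate 2 (log2 0.34, adjusted p = 0.167) or DMSO 30 h replicate 1 (log2 0.31, adjusted p = 0.184). Dram1 did so whichever DMSO or BRM014 30 h library was left out (log2 0.91 to 1.43, adjusted p from 0.0529 to 0.190), also with DESeq2, limma-voom and the 4 DMSO libraries alone (adjusted p = 0.0653 to 0.0899). Without DMSO 6 h replicate 2, Mdm2 (-1.20, adjusted p = 0.0252), Trp53 (-0.43, adjusted p = 0.0141) and Tnfrsf10b (-0.42, adjusted p = 0.0454; -0.29 ± 0.12, adjusted p = 0.0804 with all libraries) passed. Mdm2 also passed without any 1 of the BRM014 libraries, with limma-voom (adjusted p = 0.0102), with the 4 DMSO libraries alone (adjusted p = 0.00739) and with a replicate block.

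Levels were compared between members only per length, as mean CPM per kilobase of GENCODE M21 exons, an annotation the authors did not name. Rps27l was the most abundant member in all 4 groups, from 383 in DMSO at 6 h to 548 with BRM014 at 30 h, and Ccng1 was next in each, from 172 to 235. In DMSO at 6 h Trp53 (166), Mdm2 (148) and Phlda3 (134) followed. Ephx1 was 3rd in DMSO at 30 h (179) and 14th with BRM014 at 30 h (24.6). Its 2 values per group did not reach those of the other group, at 164 and 194 against 27.1 and 22.2. At the low end Eda2r and Dram1 stayed at or below 1.92 in every group, and Gdf15 at 0.258 with BRM014 at 6 h was close to them.

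Genes outside the 32 were counted on 2 further lists drawn from general knowledge, with earlier results of these data already known. Of 28 symbols for p53 regulators and partners, 27 were found in the table and 25 tested. At 6 h there were 3 risers and no faller, with 22 not passing (12% called beside 23.8% of all tested genes), and at 30 h 6 risers and 2 fallers, with 17 not passing (32% beside 36.1%). Cdkn2a, the locus of the MDM2 inhibitor ARF and of the CDK inhibitor p16, rose at 6 h (0.70 ± 0.12, adjusted p = 0.000804) and 30 h (1.42 ± 0.12, adjusted p = 6.67e-07), and the counts do not separate its products. Smyd2, a lysine methyltransferase gene whose product represses p53, rose at 6 h (0.42 ± 0.10) and 30 h (0.66 ± 0.10). Trp53bp1, a damage mediator gene, rose at 6 h (0.34 ± 0.10) and 30 h (0.65 ± 0.10), and Setd7, another lysine methyltransferase gene, rose at 30 h (0.74 ± 0.10). Of 28 symbols for further p53-induced genes, 26 were found and 22 tested. At 6 h there were 5 risers and 6 fallers, with 11 not passing (50% called beside 23.8% of all tested genes), and at 30 h 8 risers and 5 fallers, with 9 not passing (59.1% beside 36.1%). The nuclear body gene Pml fell at 6 h (-0.77 ± 0.10) and 30 h (-0.38 ± 0.09), Abhd4 rose at 6 h (0.80 ± 0.10) and 30 h (0.82 ± 0.10), and so did the phosphomannomutase gene Pmm1 (0.69 ± 0.11 and 1.23 ± 0.11). Tap1, a peptide transporter gene, rose at 6 h (1.83 ± 0.56, adjusted p = 0.0289) and 30 h (2.81 ± 0.39, adjusted p = 6.6e-05). It was near the limit of counting, with 2 and 8 counts in DMSO at 6 h and 17 and 23 with BRM014. At 30 h it had 14 and 14 counts in DMSO and 107 and 123 with BRM014. Genes of both lists are named here by smallest p, not by size. The largest fall among the further p53-induced genes was that of Ak1. It was -2.02 ± 0.41 at 6 h (adjusted p = 0.0129 in edgeR) and -2.78 ± 0.41 at 30 h (adjusted p = 0.00225). The medians of the 2 lists were -0.01 and -0.17 at 6 h and 0.02 and 0.09 at 30 h.

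Over the 8 libraries, the tested genes with log2 CPM most like that of Mdm2 were Dyrk3 (Pearson r = 0.956), Mamld1 (0.932) and Rnf39 (0.928), and the member most like it was Plk3 (0.734). For Trp53 they were Rpl35a (0.979), Mepce (0.979) and Setd6 (0.969), again with Plk3 as the nearest member (0.749). The members least like Mdm2 and Trp53 were in both cases Btg2 (r = -0.401 and -0.788). These correlations describe 8 libraries that share 4 groups and carry no test.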

How the data were processed

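RNA from NMuMG cells was measured in 8 libraries, 2 in each of 4 groups. Per the labels' protocols, stranded total RNA libraries were sequenced on an Illumina instrument from one end. The authors deposited a table of unnormalized counts, in which each gene has an Entrez ID and a symbol. Named in the submitters' processing notes are mm9, Subread, SAMtools 0.1.19 and featureCounts, without roles; the annotation and strand setting were not given.

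From these counts, genes were kept with filterByExpr (11835 of 21240) and scaled by TMM, and 1 edgeR 4.0.16 quasi-likelihood fit (R 4.3.3, robust, 4 residual degrees of freedom) gave 2-sided tests, adjusted by Benjamini-Hochberg within each comparison at a threshold of 0.05. Tested were the BRM014 effect over DMSO at each time, the change of that effect from 6 h to 30 h, and the later against the earlier DMSO libraries. Every adjusted p is from edgeR unless DESeq2 1.42.0 or limma 3.58.1 is named. The fit was tested on simulated data. The members and lists were chosen with earlier results of these data known. Values in every library are given for members that passed in a comparison with a log2 fold change of at least 0.5 in size, and for Trp53, Mdm2, Mdm4 and Ppm1d. From the 2 further lists the 3 passing genes with the smallest p at each time are named, with Ak1 added for its large fall. The 3 genes most correlated with Mdm2 and with Trp53 are named too. Setd8, Pidd and Trp53cor1 matched no symbol in the table. Promoter windows came from RefSeq (GRCm38.p6). The alternatives were scaling by RLE factors, library totals or 75 ribosomal protein genes, no filter or a stricter one (1 CPM in at least 4 libraries), DESeq2, limma-voom, only the 4 libraries of a comparison, a replicate block, and each library left out.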

Additional observations from a re-analysis of the deposited data

Results flagged for a closer look

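The effect of BRM014 differed between 6 h and 30 h by the interaction term of the edgeR fit for 4 members, with log2 differences of -1.25 for Btg2, 1.10 for Gadd45a, 0.97 for Plk2 and -1.28 for Ephx1. The DMSO level moved with 3 of them. From 6 h to 30 h in DMSO, Btg2 went from a mean of 28.2 to 120 CPM, Ephx1 from 97.6 to 311 CPM and Plk2 from 252 to 127 CPM, whereas Gadd45a was at 13.6 and 12.6 CPM. With BRM014 the means at 6 h and 30 h were 99.1 and 178 CPM for Btg2, 32.7 and 42.9 for Ephx1, 243 and 241 for Plk2 and 22.3 and 44.6 for Gadd45a. The part of the vehicle's time course in these differences was not tested.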

How the results depend on the processing

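No value that passed its test changed sign in any alternative. Calls held in all alternatives for 7 of 13 members at 6 h, 10 of 15 at 30 h, 4 of 4 for the difference between times and 7 of 11 for time in DMSO. The number of risers at 6 h (5) was 9 with library totals, 11 with no filter, 9 with a replicate block, 11 with only the 4 libraries and 2 to 8 with 1 library left out. The fallers at 6 h (8) numbered 5 to 8, and the risers at 30 h (11) 7 to 15, with 1 library left out, and the latter 17 with ribosomal protein scaling. For the difference, the upward calls (2) numbered 5 with no filter and 7 with the replicate block. For time in DMSO the lower members (4) numbered 7 with the block and 2 to 6 with 1 library left out. The cause was not tested.

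The replicate numbers do not establish pairs, as the labels do not say what the numbers mark. Deviations of same-numbered libraries correlated positively over genes for every pair of groups. The value was 0.011 for DMSO 6 h with BRM014 30 h and 0.122 to 0.201 for the other pairs. With the block 16 more of the 128 member values passed and none was lost, and Mdm2 passed at 6 h (-0.66, adjusted p = 0.000159), at 30 h (0.54, adjusted p = 0.000691), between the times (1.20, adjusted p = 4.08e-05) and over time in DMSO (-0.87, adjusted p = 8.09e-06), all in edgeR.

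Signs changed only in values that did not pass. For Ppm1d they were -0.0647 at 6 h without DMSO 6 h replicate 2, -0.0577 at 30 h without BRM014 30 h replicate 2, and, for the difference, 0.0780 with ribosomal protein scaling and, with 1 library left out, 0.0929 (DMSO 6 h replicate 2), 0.0158 (BRM014 6 h replicate 1) and 0.0518 (BRM014 30 h replicate 1). For Ppm1d over time in DMSO they were 0.0705 with library totals, 0.0801 with ribosomal protein scaling, 0.00235 with the stricter filter and 0.11 without DMSO 6 h replicate 1. With 1 library left out, the values ranged from -0.36 to 0.0446 for Mdm4, from -0.0647 to 0.18 for Ppm1d and from -0.13 to 0.59 for Dram1 at 6 h, from -0.16 to 0.69 for Fas and from -0.011 to 0.47 for Ei24 at 30 h, and from -0.0659 to 0.28 for Trp53 in the difference. Of 38 further values under 0.25 in size that passed nowhere, 25 changed sign somewhere.

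Ribosomal protein scaling moved the median of all tested genes to 0.17 at 30 h, 0.11 in the difference and 0.10 over time in DMSO, and the members' median at 30 h to 0.47. The share of calls that were lower over all genes was 60.4% at 6 h and 44.9% with library totals. With ribosomal protein scaling it moved from 53.1% to 30.5% at 30 h, from 39.5% to 23.5% for the difference and from 49% to 29.1% for time in DMSO, which was 34.1% with library totals. With 2 libraries a group and 4 residual degrees of freedom, small changes could be missed, and Dram1, Eda2r and Gdf15 rest on low counts.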

Other observations

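Several members ran higher in the libraries numbered replicate 1 than in those numbered replicate 2. This held for 23 of 32 members in DMSO at 6 h, 24 with BRM014 at 6 h, 23 with BRM014 at 30 h and 16 in DMSO at 30 h, while between 47.1% and 51.3% of all tested genes did so. In all 4 groups it held for 10 members (31.2%): Trp53, Mdm2, Btg2, Plk2, Zmat3, Fas, Phlda3, Ei24, Ddb2 and Ercc5, and for 10.3% of all tested genes. The ratio of replicate 1 to replicate 2 for Mdm2 was 1.52 in DMSO at 6 h, 1.09 in DMSO at 30 h, 1.60 with BRM014 at 6 h and 1.52 with BRM014 at 30 h. The labels do not say what a replicate number stands for, and the pattern was noticed after the values were seen.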
